A study of Homo sapiens with 4 samples.

Results

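The genes described here are 33 members of the folding and degradation machinery of the endoplasmic reticulum (ER). They were chosen by symbol from a written list, and each symbol was found once among the 37468 features counted. Their levels were measured in 4 single-cell RNA libraries of the human line MSTO-211H, derived from a pleural mesothelioma. The cells were wild type, were grown in suspension in serum-free medium with EGF, bFGF and heparin, and are called mesothelioma-initiating cells in the labels. The Control library came from cells given vehicle, and the Radiation library from cells irradiated with 4 Gy. The Drug library came from cells given 10 µM QTP, a compound whose abbreviation the labels leave unexpanded; the title of the series speaks of inhibiting dopamine receptors. The Drug_Radiation library came from cells given both, with QTP added the day before, and collection was 48 h after irradiation. Each group is 1 library made from pooled cells of 1 line, so no difference below has a replicate check and no test was made.

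The ER folds secreted and membrane proteins with chaperones, with lectins that read sugar chains and with enzymes that form disulfide bonds. Proteins that fail to fold are drawn back through the membrane and destroyed, a route called ER-associated degradation. When misfolded proteins gather, the sensors IRE1, PERK and ATF6 start the unfolded protein response, which raises transcription of many of these genes through spliced XBP1 and cleaved ATF6. Splicing and cleavage cannot be read from gene counts.

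Short DNA elements bound by these factors are known in promoters, and 3 of them were searched on both strands of the promoters of 30 members, taken from RefSeq on GRCh38.p14 from 250 bases before to 50 bases after the start. The ER stress response element ERSE (CCAAT, then 9 bases of any kind, then CCACG) was in 7 of the 30 promoters and in 0.0769% of all 35116 promoters. The related element ERSE-II (ATTGG, then 1 base of any kind, then CCACG) was in 4 members and in 0.0541% of all promoters. The element UPRE (TGACGTGG) was in 1 member, HYOU1, and in 0.729% of all promoters. At least 1 of these elements was in 11 of the 30 members and in 0.857% of all promoters. The list takes in genes of the unfolded protein response, whose factors bind these elements, so the shares among members are not independent of the list. The matched sites of the 11 genes are shown first, with the fixed letters in capitals and the spacer in lower case. They are read 5′ to 3′ on the strand that matched.
HSPA5: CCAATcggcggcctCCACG
HSP90B1, at -194: CCAATcggaaggagCCACG
HSP90B1, at -89: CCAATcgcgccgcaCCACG
CALR: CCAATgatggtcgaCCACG
CANX: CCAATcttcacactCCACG
CRELD2: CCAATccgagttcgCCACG
XBP1: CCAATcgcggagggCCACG
ERO1B: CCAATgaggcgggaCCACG
SDF2L1: ATTGGtCCACG
HERPUD1: ATTGGgCCACG
NUCB1: ATTGGtCCACG
HYOU1, both sites: ATTGGaCCACG

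The sites lay at different distances from the start. The ERSE of HSPA5 began 66 bases before the start, at -66, and that of XBP1 at -52. The sites of HSP90B1 began at -194 and -89, on opposite strands. HYOU1 had ERSE-II at -185 and -79, and its UPRE, at -188, overlapped the first of them. A letter match is a description and not a measured binding site, and the absence of a match says only that these letters are not in this window.

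**Figure D1:**
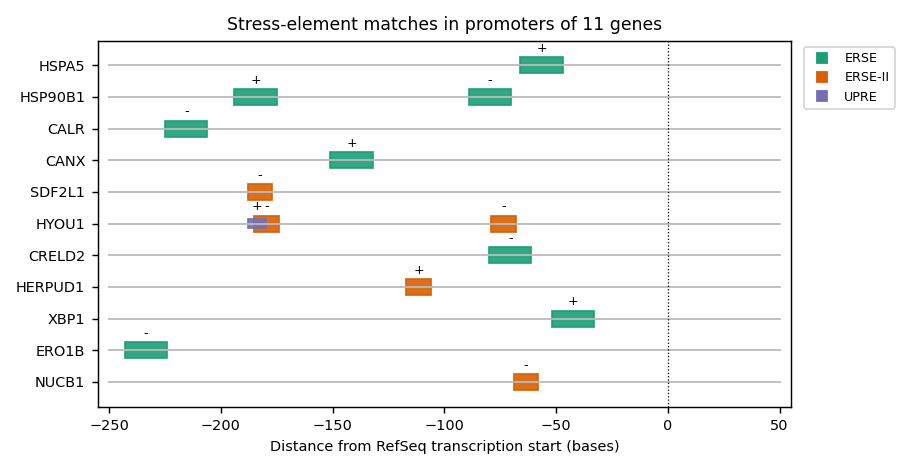
Positions of the element matches in the promoters of 11 members, with the distance from the RefSeq start in bases on the x axis and the strand of each match marked as + or -. The ERSE matches of HSPA5 and XBP1 lie near the start, at -66 and -52, and that of ERO1B lies far from it, at -243.

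Of these promoters, 4 are printed upstream of the annotated gene on GRCh38.p14, 5′ to 3′ on the strand of the gene, with the matched elements in capitals. HSPA5 and CALR are shown as members past 1.5-fold in Radiation, Drug and Drug_Radiation, each against Control, over all cells. HYOU1 and XBP1 were short of that fold in Drug, and under 20 CPM in the libraries compared for Radiation. HYOU1 was past it in Drug_Radiation (0.67, or 0.15 in cells of 6500 to 15000 UMIs). In those cells HSPA5 (0.36, 0.30 and 0.33) and CALR (0.51, -0.080 and 0.12) were short of 1.5-fold in Radiation, Drug and Drug_Radiation. XBP1 was past it there in Drug (0.65).
HSPA5, chr9:125241344-125241593, minus strand: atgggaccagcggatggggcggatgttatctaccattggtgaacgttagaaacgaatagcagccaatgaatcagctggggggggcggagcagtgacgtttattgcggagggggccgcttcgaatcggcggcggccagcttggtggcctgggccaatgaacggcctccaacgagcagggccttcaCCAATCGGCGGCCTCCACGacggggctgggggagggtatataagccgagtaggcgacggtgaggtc
CALR, chr19:12938359-12938577, plus strand: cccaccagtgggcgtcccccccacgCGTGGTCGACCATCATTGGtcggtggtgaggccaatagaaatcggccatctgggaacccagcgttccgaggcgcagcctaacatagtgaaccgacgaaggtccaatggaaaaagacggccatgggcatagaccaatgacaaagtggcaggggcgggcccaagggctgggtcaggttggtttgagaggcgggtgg
HYOU1, chr11:119057206-119057455, minus strand: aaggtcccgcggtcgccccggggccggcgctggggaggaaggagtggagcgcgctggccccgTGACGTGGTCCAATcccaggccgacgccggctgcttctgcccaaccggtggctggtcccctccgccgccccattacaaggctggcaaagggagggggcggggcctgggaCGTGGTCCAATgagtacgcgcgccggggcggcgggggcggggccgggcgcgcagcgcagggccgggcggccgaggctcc
XBP1, chr22:28800598-28800819, minus strand: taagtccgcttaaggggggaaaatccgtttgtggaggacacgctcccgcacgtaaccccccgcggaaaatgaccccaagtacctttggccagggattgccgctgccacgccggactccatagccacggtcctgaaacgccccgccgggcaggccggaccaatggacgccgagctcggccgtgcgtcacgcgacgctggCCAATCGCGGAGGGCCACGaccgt

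Levels are given as CPM: the unique molecular identifiers (UMIs) of a gene, added up per library, were scaled to all nuclear-encoded UMIs of that library. The libraries held 3183 cells (Control), 2425 (Radiation), 3802 (Drug) and 6990 (Drug_Radiation), with median depths of 2318, 5299, 20405 and 18024.5 UMIs per cell, and no barcode was shared between them. Depth therefore goes with the groups. Neither QTP nor radiation can be told apart from depth and any batch of library preparation by the design. Of the line's markers, KRT8, KRT18 and VIM were between 1786 and 4661 CPM, CALB2 between 27.6 and 49.2, MSLN between 8.27 and 14.0 and WT1 between 1.12 and 1.89, while KRT5, KRT19, PDPN and UPK3B were at or near 0. Markers of other cell types summed to under 3 CPM per list in every library, except CD68. The monocyte and macrophage list, which CD68 led, summed to 17.7 CPM in Control and to 41.9, 40.5 and 40.1 in the others. CD68 is also a lysosomal gene, and its part in the results was not tested. In summed cells, fewer expressing cells and less RNA per cell cannot be told apart.

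Together the 33 members made up 2821 CPM in Control and 4172, 4083 and 3896 in Radiation, Drug and Drug_Radiation. Control was low and the other libraries lay close to each other. The log2 ratio of the sum was 0.56 for Radiation against Control (95% interval for counting error, 0.54 to 0.59) and 0.53 for Drug against Control (0.51 to 0.55). With the other treatment already present the ratios were below 0, at -0.068 for Drug_Radiation against Drug and -0.099 for Drug_Radiation against Radiation, and the first of these was 0.11 with TMM scaling. SEC61B alone gave 717 of the 2821 CPM in Control. Without it the first pair of ratios were 0.71 and 0.73.

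A member was called when its ratio passed 1.5-fold, on log2 of CPM plus 1, and the gene reached 20 CPM in either library compared. That floor left 19 members measured for Radiation against Control and 24 in the other comparisons. A member could reach it through its higher library alone. Among members called for Drug against Control, SYVN1, DNAJB9, SEL1L, UGGT1 and ATF6 did so in Drug. Among those called for Drug_Radiation against Control, SYVN1, DNAJB9, UGGT1 and HYOU1 did so in Drug_Radiation. Members under it in Drug and Control had ratios below 0 (DNAJB11, SDF2L1 and CRELD2) or above 0 (DNAJC3, DERL3, EDEM1, ERN1, EIF2AK3 and ERO1B). Calls thus depend in part on the floor, which all genes shared. Radiation against Control had 7 members higher and 0 lower, namely NUCB1, OS9, P4HB, PDIA3, CALR, HSPA5 and HSP90B1, where 14.8% of 4818 genes were called higher and 3.45% lower. The median ratio over the 19 was 0.51, beside 0.18 over all genes measured. Drug against Control had 15 of 24 higher and 0 lower, where 40.1% of 5546 genes were called higher and 3.21% lower, with medians of 0.73 and 0.50. TMM scaling, which lowers the median of all genes in that comparison from 0.50 to 0.10, left 3 members higher (SYVN1, NUCB1 and OS9) and 2 lower (DNAJB11 and SEC61B) of 24, where 9.17% of all genes were higher and 6.77% lower. Under both scalings the median of the members stood 0.23 above that of all genes. Cells of 6500 to 15000 UMIs are called the shared depth range, because every library held them. They lay above the median depth of Control and Radiation and below that of Drug and Drug_Radiation. In that range 4 of 22 members were called higher for Radiation against Control, where 7.20% of all genes were. For Drug against Control in that range it was 6 of 25, where 24.7% of all genes were, so the members' share was no higher than that of all genes.

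Drug_Radiation against Drug had 1 of 24 higher and 0 lower, SYVN1, where 0.844% of genes were called higher and 2.39% lower. The members' median was -0.089, beside -0.18 over all genes. Drug_Radiation against Radiation likewise had SYVN1 higher and 0 lower, where 8.09% of genes were called higher and 2.29% lower, and with TMM scaling PDIA3 was lower there as well. Drug_Radiation against Control had 10 of 24 higher and 0 lower, where 25.7% were called higher and 3.6% lower. At 2-fold the members called higher were 3 for Radiation against Control (background 2.18%), 4 for Drug against Control (8.6%), 3 for Drug_Radiation against Control (5.36%), 1 for Drug_Radiation against Radiation (1.15%) and 0 for Drug_Radiation against Drug (0.269%). The comparisons share libraries and are not independent of each other.

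The libraries can also be ordered. Control had the lowest CPM of the 4 libraries for 21 of the 24 members measured, beside 61.4% of all genes. Drug had the highest for 14 members, beside 68% of all genes. Radiation had the highest for 7 members, beside 7.23% of all genes, namely P4HB, PDIA3, PDIA4, CALR, OS9, NUCB1 and SEC61B.

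**Figure D2:**
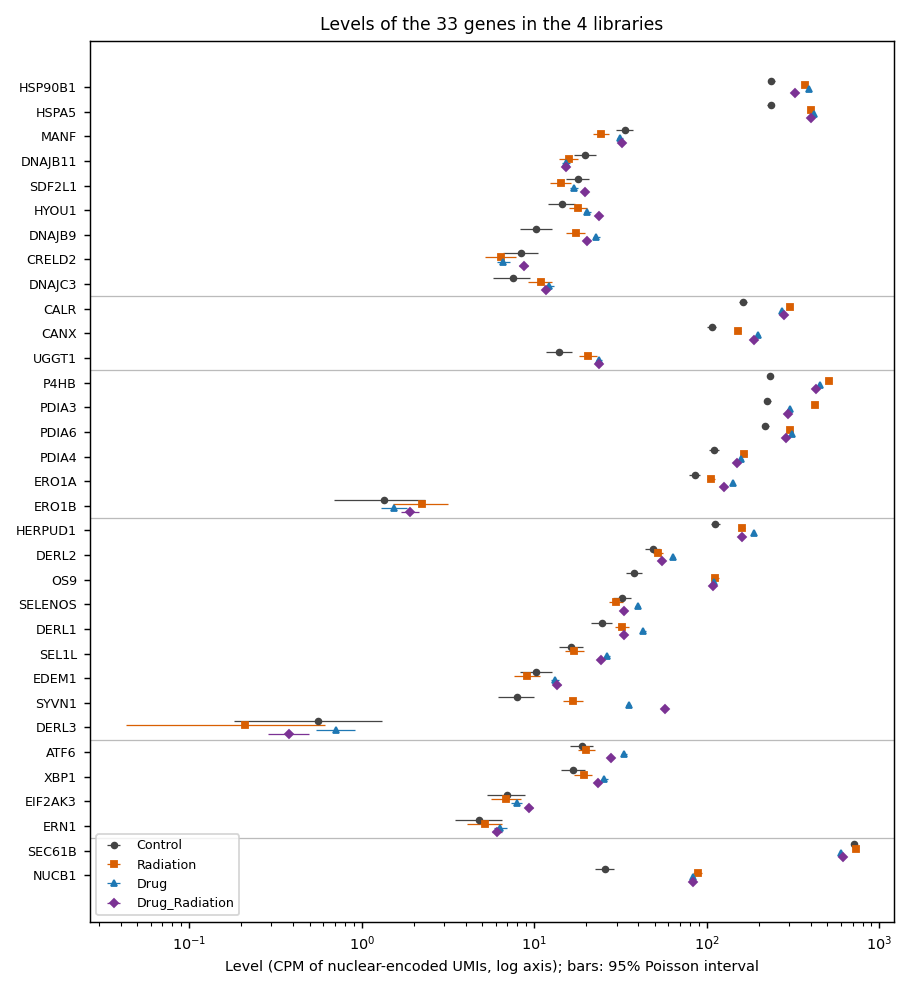
CPM of each member on a log axis in the 4 libraries, with 95% Poisson intervals as bars and the members grouped by role. The Control points of HSPA5, P4HB, OS9 and NUCB1 lie to the left of the other libraries, while those of SEC61B, MANF and DNAJB11 do not.

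The chaperones of the HSP70 and HSP90 type came first by role. HSPA5 (BiP), the main ER HSP70, stood at 235 CPM in Control and 401, 419.9 and 405 in Radiation, Drug and Drug_Radiation. The 3 treated libraries were high and close to each other. Against Control the log2 ratio of HSPA5 was 0.77 (0.70 to 0.85) in Radiation and 0.84 (0.78 to 0.90) in Drug, while it was -0.053 for Drug_Radiation against Drug, or 0.13 with TMM scaling. The ratios to Control in the shared depth range were 0.36 and 0.30, short of 1.5-fold.

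HSP90B1 (GRP94), the ER member of the HSP90 family, was at 237 CPM in Control and 372, 392 and 327 in Radiation, Drug and Drug_Radiation. Control was again low, and the library with both treatments stood between it and the single treatments. Its ratio was 0.65 (0.58 to 0.72) for Radiation and 0.72 (0.66 to 0.79) for Drug against Control, and -0.26 (-0.28 to -0.24) for Drug_Radiation against Drug. In the shared depth range the first was 0.55, short of 1.5-fold, and the second 0.74.

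The cofactors of BiP did not all have their lowest level in Control. MANF, a secreted ER stress protein that binds BiP, had 33.5 CPM in Control and 24.3, 31.4 and 32.3 in Radiation, Drug and Drug_Radiation. Radiation was low and the other libraries alike, with a log2 ratio of -0.45 (-0.69 to -0.24) for Radiation against Control, which is short of 1.5-fold. HYOU1 (GRP170), a nucleotide exchange factor for BiP, had 14.4, 17.9, 20.3 and 23.6 CPM in Control, Radiation, Drug and Drug_Radiation. It was 1 of the 3 highest members for Drug_Radiation against Drug, at 0.21 (0.14 to 0.30).

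DNAJB9 (ERdj4), a J protein known as a target of spliced XBP1, had 10.3 CPM in Control and 17.4, 23.0 and 20.2 in Radiation, Drug and Drug_Radiation. Its log2 ratio was 1.09 (0.86 to 1.48) for Drug against Control, on 92 UMIs in Control, and 0.24 in the shared depth range. DNAJB11 (ERdj3), SDF2L1 and CRELD2, which also assist or accompany BiP, were at or below their Control level in Radiation and in Drug, with ratios from -0.35 to -0.062. DNAJC3 (p58IPK) was between 7.49 and 12.2 CPM. SDF2L1 and CRELD2 carry ERSE-II and ERSE, as HYOU1 and HSPA5 do, so ratios of members with a matched element lay on both sides of 0. SDF2L1 and CRELD2 were under 20 CPM in every library. The intervals of CRELD2 held 0 in Radiation and in Drug. That of SDF2L1 held 0 in Drug but not in Radiation (-0.63 to -0.021).

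The lectin chaperones calreticulin and calnexin hold glycoproteins during folding, and UGGT1 sends unfolded ones back to them. CALR was at 162 CPM in Control and 305, 272 and 279 in Radiation, Drug and Drug_Radiation. Radiation was the high library, and the log2 ratio to Control was 0.90 (0.82 to 0.995) there and 0.74 (0.67 to 0.82) in Drug. In the shared depth range it was 0.51 in Radiation, short of 1.5-fold, and -0.080 in Drug, where its direction turned. CANX and UGGT1 were past 1.5-fold for Drug against Control, at 0.89 and 0.73, and not for Radiation against Control, at 0.50 and 0.52. In the shared depth range CANX was at 0.57 in Drug, just short of that fold. UGGT1 was past it in both, at 1.20 in Drug and 0.87 in Radiation, on 11.5 CPM in Control. In cells of 4000 to 6500 UMIs the ratio of UGGT1 for Radiation against Control was 0.32.

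Disulfide enzymes had the highest summed ratio of the roles for Radiation against Control, 0.79 (0.75 to 0.83), from 873 to 1511 CPM. The lectin chaperones were close to it, at 0.75 (0.69 to 0.82). Medians over measured members were 0.58 for disulfide enzymes, 0.52 for lectin chaperones and 0.65 for chaperones of the HSP70 and HSP90 type. P4HB (PDI), which forms and reshuffles disulfide bonds and is also a subunit of collagen prolyl 4-hydroxylase, was at 233 CPM in Control and 508, 456 and 431 in Radiation, Drug and Drug_Radiation. Its log2 ratio was 1.12 (1.05 to 1.19) for Radiation and 0.96 (0.90 to 1.03) for Drug against Control, and in the shared depth range 0.69 and 0.20.

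PDIA3 (ERp57), which works with calnexin and calreticulin, was at 225 CPM in Control and 426, 303 and 297 in Radiation, Drug and Drug_Radiation. Radiation stood apart from both QTP libraries: the ratio was 0.92 (0.85 to 0.998) for Radiation against Control but 0.43 (0.36 to 0.50) for Drug against Control, and -0.52 (-0.56 to -0.48) for Drug_Radiation against Radiation. In the shared depth range the first was 0.58, just short of 1.5-fold, and the second -0.15. PDIA4 and PDIA6 had ratios of 0.47 to 0.58 against Control in Radiation and Drug, short of 1.5-fold. In the shared depth range PDIA4 was at 0.059 in Radiation and -0.24 in Drug, and PDIA6 at 0.17 and 0.071. ERO1A, the oxidase that recharges PDI, had ratios of 0.31 in Radiation and 0.73 in Drug (0.43 in the shared depth range), while ERO1B stayed under 2.3 CPM.

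The degradation genes differed among themselves. OS9, a lectin that hands glycoproteins to the degradation complex, was at 37.9 CPM in Control and 112, 109.6 and 108 in Radiation, Drug and Drug_Radiation. The treated libraries were alike and Control alone was low, with log2 ratios of 1.53 (1.39 to 1.73) for Radiation and 1.51 (1.38 to 1.69) for Drug. The ratio was -0.020 for Drug_Radiation against Drug, or 0.16 with TMM scaling. In the shared depth range OS9 was at 64.9 CPM in Control and 120.4, 80.4 and 92.1 in Radiation, Drug and Drug_Radiation. There the ratio was 0.88 for Radiation but 0.30 for Drug, which is short of 1.5-fold.

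SYVN1 (HRD1), the ubiquitin ligase of the complex, was at 7.93 CPM in Control and 16.8, 35.3 and 57.1 in Radiation, Drug and Drug_Radiation. Each library stood above the one before it in that order, and SYVN1 was the only member past 1.5-fold higher in both QTP comparisons, which 2.86% of 5112 genes were. Its ratio was 2.02 (1.81 to 2.51) for Drug against Control, 1.70 (1.58 to 1.95) for Drug_Radiation against Radiation and 0.68 (0.63 to 0.75) for Drug_Radiation against Drug. The level is uncertain. SYVN1 shares 398 exon bases on the same strand with FAU, a ribosomal gene at 1586 to 2142 CPM, and 356 bases on the opposite strand with MRPL49, and how shared reads were assigned is not given in the sources used here. FAU itself was highest in Control, with 2142 CPM in Control and 1874, 1586 and 1765 in Radiation, Drug and Drug_Radiation.

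SEL1L, the scaffold that holds SYVN1, did not follow it closely, with 16.4 CPM in Control and 17.1, 26.6 and 24.4 in Radiation, Drug and Drug_Radiation. Both QTP libraries were above both others, with ratios of 0.66 (0.45 to 0.94) for Drug against Control and 0.49 (0.33 to 0.71) for Drug_Radiation against Radiation. HERPUD1, a membrane partner of SYVN1, was at 112 CPM in Control and 159.8, 188 and 161 in Radiation, Drug and Drug_Radiation. It was past 1.5-fold in Drug, at 0.74 (0.65 to 0.83), but not in the shared depth range (0.21), and not in Radiation, at 0.51 (0.40 to 0.62).

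DERL1, a derlin that forms part of the retrotranslocation channel, had 24.6 CPM in Control and 32.3, 42.8 and 33.1 in Radiation, Drug and Drug_Radiation. It was high in Drug alone, at 0.78 (0.60 to 1.003) against Control and 0.16 in the shared depth range. Its ratio of -0.36 (-0.43 to -0.31) was the lowest of the 24 members for Drug_Radiation against Drug. SELENOS, a selenoprotein bound to the derlins, had 32.4, 29.9, 39.96 and 33.3 CPM in Control, Radiation, Drug and Drug_Radiation. DERL2 and EDEM1 stayed within 1.5-fold of Control in Radiation and in Drug, and DERL3 had 5 UMIs in Control, too few to compare.

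The stress sensors and XBP1 summed to 47.5 CPM in Control and 51.5 in Radiation, a log2 ratio of 0.12 (-0.058 to 0.29), whose interval holds 0. In Drug the same sum was 72.9 CPM, with a ratio of 0.62 (0.48 to 0.76), beside a median of 0.50 over all genes. With TMM scaling, which put that median at 0.10, the Drug ratios were 0.39 for ATF6, 0.19 for XBP1, 0.0060 for ERN1 and -0.18 for EIF2AK3. In the shared depth range they were 0.90, 0.65, 0.18 and 0.66, beside a median of 0.24. ATF6, the sensor that is cut in the Golgi to a transcription factor, was at 18.9 CPM in Control and 20.1, 33.1 and 27.9 in Radiation, Drug and Drug_Radiation. Both QTP libraries were high, at 0.78 (0.58 to 1.04) for Drug against Control and 0.46 (0.30 to 0.65) for Drug_Radiation against Radiation.

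XBP1, the substrate of IRE1, had 16.9, 19.3, 25.6 and 23.5 CPM in Control, Radiation, Drug and Drug_Radiation. Its ratio was 0.57 (0.36 to 0.85) for Drug against Control, short of 1.5-fold, and 0.19 (-0.10 to 0.49) for Radiation. ERN1, which encodes IRE1, ran from 4.81 CPM in Control and 5.16 in Radiation to 6.12 in Drug_Radiation and 6.36 in Drug, and both intervals against Control held 0. EIF2AK3, which encodes PERK, had 6.93 CPM in Control and 6.91, 7.91 and 9.29 in Radiation, Drug and Drug_Radiation. Its interval held 0 for Radiation and for Drug against Control but not for Drug_Radiation against Radiation, at 0.38 (0.13 to 0.74).

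The remaining 2 members stand outside these roles. SEC61B, a subunit of the channel through which proteins enter the ER, had 717 CPM in Control and 735, 604 and 613 in Radiation, Drug and Drug_Radiation. It was lower in both QTP libraries but within 1.5-fold, with ratios of -0.25 (-0.29 to -0.21) for Drug against Control and -0.26 (-0.29 to -0.23) for Drug_Radiation against Radiation, and level with Control in Radiation. NUCB1, a calcium-binding protein of the Golgi, had 25.6 CPM in Control and 88.6, 83.4 and 83.5 in Radiation, Drug and Drug_Radiation. It had the highest ratio of the measured members in Radiation, 1.75 (1.59 to 2.001), and 1.67 (1.51 to 1.90) in Drug. Both were lower in the shared depth range, at 1.37 and 0.31, and the call in Drug was lost.

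**Figure D3:**
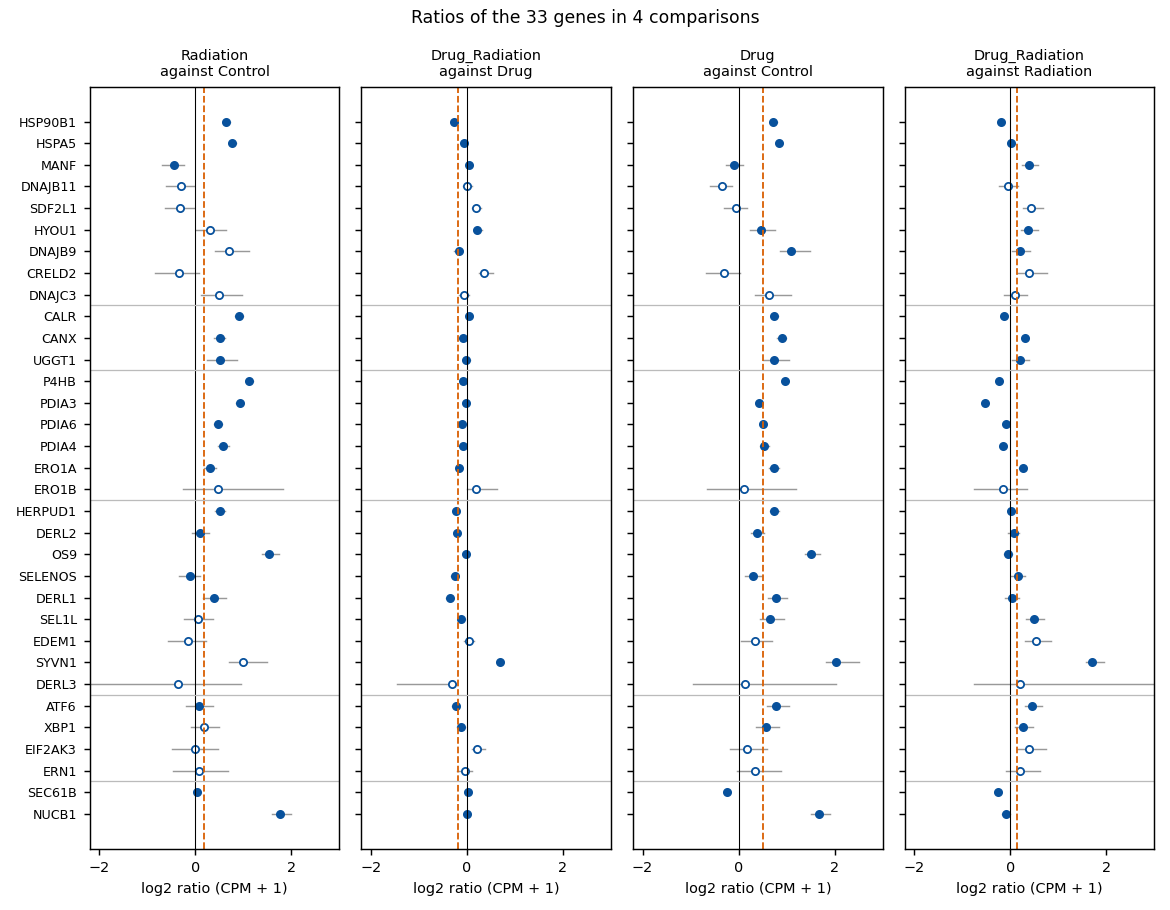
Log2 ratios of CPM plus 1 for the 33 members in 4 comparisons, with 95% counting intervals; filled points reach 20 CPM in either library and the dashed line is the median of all genes measured. NUCB1 and OS9 lie far to the right in both comparisons with Control, and the second panel keeps most members near 0 with SYVN1 at 0.68.

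Shallow cells of Control had lower levels of these genes than its deeper cells. In cells of 1000 to 2500 UMIs the members summed to 2360 CPM in Control (1757 cells) and to 4105 in Radiation (182 cells). Control stood at 2799, 3056 and 3380 CPM in the windows that begin at 2500, 4000 and 6500 UMIs, and at 3492 in 25 cells of 10000 to 15000. Radiation stayed between 4015 and 4547 CPM in every window shown, Drug between 3629 and 4295 and Drug_Radiation between 3672 and 4151. HSPA5 in Control went from 185 CPM in the shallowest window to 356 in the deepest, and in Radiation it stayed between 394 and 419.

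The shared depth range held 173 cells of Control and 770, 1023 and 2533 of Radiation, Drug and Drug_Radiation. Their median depths were 7775 UMIs in Control and 8566, 10833 and 11462 in Radiation, Drug and Drug_Radiation, so depth was not equal within the range. There the median ratio to Control was lower than over all cells, although some members had higher ratios. The median over members was 0.13 for Radiation and 0.20 for Drug, beside 0.066 and 0.24 over all genes. For Radiation against Control, NUCB1 (1.37), OS9 (0.88), UGGT1 (0.87) and P4HB (0.69) were past 1.5-fold higher and SDF2L1 (-0.68) lower, where 7.20% of all genes were higher and 5.26% lower. MANF and DNAJB11 were both at -0.56 there, just short of that fold.

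For Drug against Control in that range, SYVN1 (1.55), SEL1L (1.22), UGGT1 (1.20), ATF6 (0.90), HSP90B1 (0.74) and XBP1 (0.65) were past 1.5-fold higher. DNAJB11 (-0.76) and SDF2L1 (-0.66) were lower. Of all genes 24.7% were higher and 4.56% lower. SEL1L, UGGT1, ATF6 and XBP1 had higher ratios here than over all cells. The Control side of these values rests on 173 cells, with 9.37 CPM for SYVN1, 12.3 for SEL1L, 11.5 for UGGT1, 17.3 for ATF6 and 15.1 for XBP1. Those levels are under 20 CPM, and no intervals were computed for this range. The ratios of SYVN1 in the other comparisons were 1.5002 for Drug_Radiation against Radiation and 0.73 for Drug_Radiation against Drug.

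**Figure D4:**
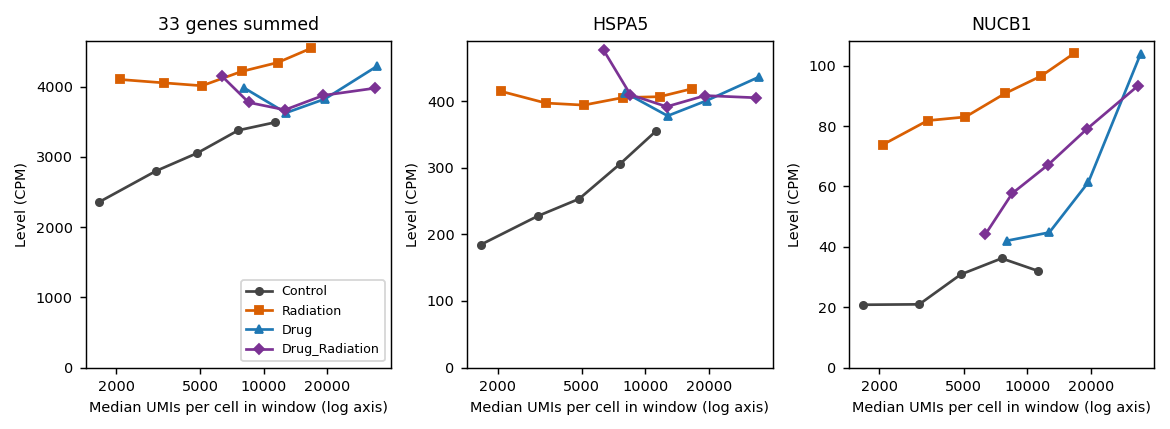
CPM of the 33 members summed, of HSPA5 and of NUCB1 in windows of UMIs per cell, plotted at the median depth of each window on a log axis. Control climbs from 2360 to 3492 summed CPM with depth while Radiation stays between 4015 and 4547; NUCB1 climbs with depth in Drug and Drug_Radiation too.

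NUCB1 moved with depth in the QTP libraries as well. It was at 42.02 CPM in Drug cells of 6500 to 10000 UMIs and at 104 in those above 25000. SYVN1 ranged from 28.7 to 39.4 CPM over the Drug windows and from 47.7 to 63.1 over those of Drug_Radiation, above every window of Control (5.1 to 14.2) and Radiation (13.3 to 25.1). SEC61B kept between 708 and 719 CPM in all Control windows.

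The ratios were also set beside length and GC content. The 3 measured members under 1500 bases in their longest coding transcript (SEC61B, MANF and SELENOS) had a median ratio of -0.11 for Radiation and -0.094 for Drug against Control, beside 0.019 and 0.35 for other genes of that length. Members of 1500 to 3000 bases had medians of 0.78 and 0.74, beside 0.30 and 0.57, and longer members 0.44 and 0.73, beside 0.18 and 0.51. Spearman's correlation of GC content with the ratio was 0.41 for Radiation against Control (19 members), beside 0.23 over other genes. It was 0.61 for Drug_Radiation against Drug, 0.19 for Drug against Control and -0.18 for Drug_Radiation against Radiation (24 members each), beside 0.38, 0.20 and 0.22. With length it was 0.012 for Radiation and 0.18 for Drug against Control, beside 0.046 and 0.061. These genes share libraries, and the part of length and GC content in the ratios was not tested.

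Cells within a library were then ranked by these genes. Each cell was thinned to 1000 UMIs, and the members then summed to a mean of 2.54 UMIs per cell in Control and 3.94, 3.78 and 3.69 in Radiation, Drug and Drug_Radiation. The variance was 1.252, 1.31, 1.38 and 1.27 times the mean, where counting alone gives 1. To see whether members varied together, cells were ranked for each member by the other 32 genes, within bins of depth, and that member was compared between the top and the bottom 20% of cells.

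Most members were higher in the top cells. The ratio was above 0 for 15 of 17 measured members in Control (71.7% of other genes), 16 of 19 in Radiation (63.6%), 23 of 24 in Drug (76.3%) and 23 of 24 in Drug_Radiation (77.3%). The median log2 ratios of the members were 0.46, 0.41, 0.45 and 0.36, beside 0.17, 0.074, 0.12 and 0.13 for other genes. Past 1.5-fold were 3, 1, 1 and 2 members, where 12%, 3.24%, 0.72% and 0.651% of other genes were. HSPA5 had ratios of 0.30, 0.58, 0.52 and 0.46, and HSP90B1 of 0.50, 0.49, 0.49 and 0.44, in Control, Radiation, Drug and Drug_Radiation.

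The highest member was NUCB1 in Control (1.13), MANF in Radiation (0.77), DNAJB9 in Drug (0.62) and SEL1L in Drug_Radiation (0.71). SEC61B was the lowest in Control (-0.28), Drug (-0.13) and Drug_Radiation (-0.083), and DERL1 in Radiation (-0.17). SYVN1, high in the QTP libraries, had ratios of only 0.11 in Drug and 0.015 in Drug_Radiation, so within those libraries it varied little with the other members. XBP1 had 0.46 and 0.23 there.

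**Figure D5:**
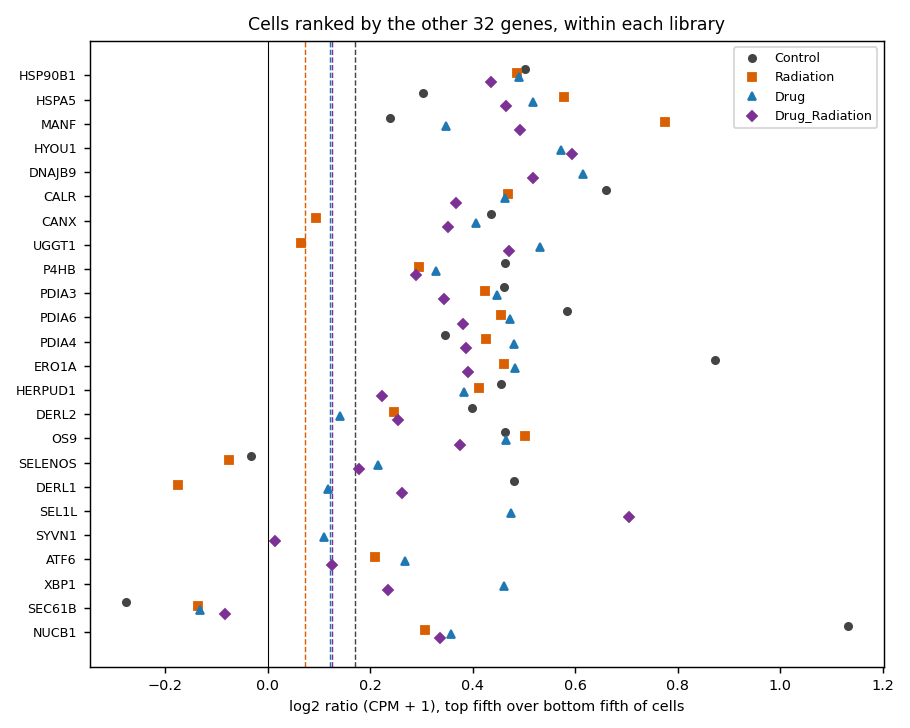
Log2 ratio of each measured member between the top and bottom 20% of cells ranked by the other members, per library, with dashed lines at the medians of other genes. Most points lie to the right of the lines, and SEC61B lies below 0 in each library.

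Among genes that are no members, the same ranking gave the highest smallest ratio over the 4 libraries to LOX, CCN2, COL6A2, APLP2, COL8A1, ESM1, PLOD2, LAMC1, COL6A1 and NOMO2, of 3971 measured in all. LOX, a collagen cross-linking enzyme, had ratios of 1.46, 1.45, 0.99 and 0.90 in Control, Radiation, Drug and Drug_Radiation. COL6A1, COL6A2 and COL8A1 are collagen chains, PLOD2 is a collagen lysyl hydroxylase of the ER and LAMC1 is a laminin chain. These 10 were picked for their high ratios, and no list of matrix genes was examined. NOMO2 has near-identical copies and its value is uncertain.

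Other genes of the pathway were taken by list. Of 15 genes of the PERK and ATF4 branch, which slows translation and induces ATF4, 6 were measured for Radiation against Control and 4 were past 1.5-fold higher. For Drug against Control 7 were measured and 6 were higher. Of all genes, 14.8% were called higher for Radiation and 40.1% for Drug against Control. The list summed to 702 CPM in Control and 1266, 1449 and 1408 in Radiation, Drug and Drug_Radiation. ATF4 was at 178, 319, 377 and 323 CPM and STC2, a secreted glycoprotein, at 85.2, 213, 220.2 and 234. DDIT3 (CHOP) was at 40.3, 50.4, 89.99 and 73.7 CPM, so it was past 1.5-fold in Drug (1.14) and not in Radiation (0.32). EIF2AK3, the sensor of that branch, was within 1.5-fold in both comparisons.

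Other degradation genes were higher for 2 of 14 and lower for 1 in Radiation, and higher for 10 of 17 in Drug. MAN1B1, a mannosidase that marks glycoproteins, was at 20.7, 51.0, 49.8 and 47.3 CPM in Control, Radiation, Drug and Drug_Radiation, the same order of libraries as OS9, which binds trimmed sugar chains. VCP, the ATPase that pulls proteins out of the membrane, was at 112, 170.1, 205 and 189.6 CPM. Of other ER folding genes 3 of 24 were higher and 1 lower in Radiation and 7 of 26 higher in Drug, of N-glycosylation genes 5 of 14 and 4 of 14 were higher, and of translocon genes 1 of 15 and 5 of 16. Those counts stand beside 14.8% of all genes called higher and 3.45% lower in Radiation, and 40.1% and 3.21% in Drug.

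Among 11 listed regulators of ER stress, 4 of 6 measured were higher and 1 lower in Radiation, and 4 of 7 higher and 1 lower in Drug. Of all genes, 14.8% were higher and 3.45% lower in Radiation, and 40.1% and 3.21% in Drug. MBTPS1, the protease that cuts ATF6, was at 15.2, 26.4, 33.9 and 32.8 CPM. TMBIM6 (BI-1), an ER membrane protein that limits IRE1 signalling, was the lower gene in both, at 1888 CPM in Control and 1059, 672 and 609 in Radiation, Drug and Drug_Radiation.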

How the data were processed

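The files hold raw UMI counts per gene and barcode, deposited by the authors without normalization, for 4 libraries of MSTO-211H cells, 1 per group. The labels name a PIPseq V T2 kit and elsewhere another platform, which leaves the kit unsettled. The submitters' processing notes list hg38 and Seurat 4.3.3 without saying what each did. Aligner, counting program, annotation, strand setting and barcode calling: not given in the sources used here. Barcodes had already been filtered by depth, since the smallest total was 1009 UMIs in Control and 6427 in Drug.

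Cells with at least 500 UMIs, at least 300 genes and under 20% mitochondrial UMIs were kept, which left out 1 to 16 barcodes per library. The totals ranged from 9249567 UMIs (Control) over 14859709 (Radiation) and 90903552 (Drug) to 149368293 (Drug_Radiation), and doublets were not removed. UMIs were summed per library and scaled to nuclear-encoded UMIs. Intervals at 95% are exact Poisson for CPM and exact conditional binomial for ratios. They cover counting error only and leave out the added 1 CPM. With 1 library per group no test was made.

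The 33 members and the lists were chosen with earlier results of these data known. Values in every library are given for HSPA5, HSP90B1, CALR, XBP1, ATF6, ERN1, EIF2AK3, DNAJB9, SYVN1, SEL1L and HERPUD1, for members past 1.5-fold in both comparisons of a treatment, and for the 3 highest and 3 lowest per comparison. Positions and transcript lengths come from GENCODE 29, promoters from RefSeq. The intervals and the 1.5-fold size were tested on simulated data. Alternatives were all barcodes, a stricter cell filter (1000 UMIs, 500 genes, 10% mitochondrial), TMM scaling by edgeR 4.0.16, median-of-ratios scaling by DESeq2 1.42.0, equal weight per cell, cells of 6500 to 15000 UMIs, thinning to 1000 UMIs, pseudocounts of 0.1 and 5 CPM, and a floor of 5 CPM or none. Cells of 4000 to 6500 UMIs and leaving out SEC61B were added after seeing the data. Work was done in Python 3.11.15 with numpy 2.4.6, scipy 1.17.1 and pandas 2.3.3, and in R 4.3.3.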

Additional observations from a re-analysis of the deposited data

Results flagged for a closer look

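Some ratios pointed one way without the other treatment and the opposite way with it. The differences between such ratios were not tested, since each group is 1 library. For radiation, the log2 ratio with QTP minus that without QTP was -0.63 for the members summed, -0.82 for HSPA5, -0.91 for HSP90B1, -0.95 for PDIA3, -1.20 for P4HB, -0.88 for DNAJB9, -0.73 for HERPUD1 and -0.74 for DERL1. For QTP, the ratio with radiation minus that without radiation was -0.63 for the members summed, -0.91 for HSP90B1, -0.86 for CALR, -0.95 for PDIA3, -1.20 for P4HB and -1.75 for NUCB1. Both differences rest on the same 4 libraries, so they are equal for a given gene. For each of these genes and for the sum, Control was the lowest of the 4 libraries. Control also had the lowest median depth. In cells of 6500 to 15000 UMIs the same differences were -0.35 for the sum, -0.34 for HSPA5, -0.90 for HSP90B1, -0.51 for PDIA3, -0.59 for P4HB, 0.018 for DNAJB9, -0.080 for HERPUD1, -0.22 for DERL1, -0.31 for CALR and -0.82 for NUCB1. With TMM scaling they ranged from -1.49 for NUCB1 to -0.37 for the sum. The opposite signs for radiation were lost with TMM scaling for the sum, HSPA5, PDIA3 and P4HB, whose ratios for Drug_Radiation against Drug were then 0.11, 0.13, 0.15 and 0.10. In the depth range they were lost for HSPA5 (0.026), PDIA3 (0.065), P4HB (0.11) and DNAJB9 (0.054). The opposite signs for QTP were lost there for CALR (-0.080 without radiation and -0.39 with it) and PDIA3 (-0.15 and -0.67). They were kept there for the sum, HSP90B1, P4HB and NUCB1.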

How the results depend on the processing

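Most values depended on Control and on how deep cells were compared. For the members with values given in every library, 279 values under alternatives belonged to ratios past 1.5-fold over all cells. Of these, 278 had the direction reported and 232 were still past 1.5-fold. The exception was CALR for Drug against Control, at -0.080 in cells of 6500 to 15000 UMIs. The floor of 20 CPM was not applied, so SYVN1 and DNAJB9 for Radiation against Control were included. CANX, UGGT1 and ERO1A, called for Drug against Control, were not included. For Radiation against Control, the members called higher were 4 in that depth range, with 1 lower (all genes 7.20% higher, 5.26% lower), 4 in cells of 4000 to 6500 UMIs, with 2 lower (8.08% and 6.96%), and 12 after thinning (23.1% higher). For Drug against Control they were 3 with TMM (9.17% and 6.77%) or median-of-ratios scaling (8.40% and 7.24%), each with 2 lower, and 6 in the depth range, with 2 lower (24.7% and 4.56%). For Drug_Radiation against Radiation they were 2 with equal weight per cell (9.53%), in the depth range (11.2%) and after thinning (12.5%). There 1 was lower with TMM (3.62%), median-of-ratios scaling (5.08%) and in the depth range (4.64%). For Drug_Radiation against Control they were 5 with TMM (12.2%), 4 with median-of-ratios scaling (9.74%) and 1 lower (7.41%), 5 in the depth range (14.99%) and 1 lower (6.36%), and 17 after thinning (34.15%).

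The ratio of the summed members for Radiation against Control was 0.48 with TMM, 0.49 with median-of-ratios scaling, 0.65 with equal weight per cell, 0.33 in the depth range, 0.64 after thinning, 0.39 in cells of 4000 to 6500 UMIs and 0.71 without SEC61B. For Drug_Radiation against Drug the first 5 of these were 0.11, 0.081, -0.044, -0.018 and -0.016, with -0.084 without SEC61B, so its sign turned with the scaling. For Drug against Control they were 0.13, 0.11, 0.60, 0.14 and 0.59, with 0.51 under the stricter cell filter and 0.73 without SEC61B. For Drug_Radiation against Radiation the sum was -0.23 with TMM, -0.30 with median-of-ratios scaling, -0.21 in the depth range, -0.065 after thinning and -0.066 without SEC61B. For Drug_Radiation against Control it was 0.44 under the stricter filter, 0.25 with TMM, 0.19 with median-of-ratios scaling, 0.56 with equal weight, 0.12 in the depth range, 0.58 after thinning and 0.64 without SEC61B. Apart from the depth ranges, which hold fewer cells, the cause of these shifts was not tested. No paired analysis was possible because each group is 1 library and the labels carry no replicate numbers. Leaving out named copies of members gave no value, since the features hold 0 such copies, and protein features were not used here. Depth limits DERL3, ERO1B and ERN1, with 5, 12 and 43 UMIs in Control.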
